A study of Mus musculus with 6 samples.

Results

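The genes described here are the semaphorins, a family of guidance ligands, and their receptors, the plexins and neuropilins, in back epidermis of mice that had lost Spry1 in keratinocytes. Members were chosen by gene name: Sema3 to Sema7 followed by a letter, Plxn followed by a letter from a to d and a digit, and Nrp1 and Nrp2. The rule found 31 genes among the 54532 of the expression table, namely 20 semaphorins, 9 plexins and 2 neuropilins. The family was singled out because Sema3d, a secreted semaphorin, was already known to be among the strongly lower genes in the knockouts. The values of Sema3d in the knockouts and controls are therefore a description with no test, and counts of semaphorins are given without it, as are sums beside those that include it.

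Semaphorins are secreted or membrane-bound proteins, first known for steering growing axons, that bind plexins through their sema domain. Class 3 semaphorins are secreted and most of them need a neuropilin, which holds the ligand while an A plexin signals through small GTPases to the cytoskeleton. Class 4, 5 and 6 semaphorins span the membrane, and class 7 is anchored by a lipid. In skin, keratinocytes make several semaphorins and plexins, and the family is known for effects on nerve fibre ingrowth, vessels, immune cells and keratinocyte adhesion.

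RNA-seq was made from 3 knockout samples (Spry1_KO) and 3 control samples (Control). Spry1_KO mice were Spry1flox/flox with K14-Cre-ERT2, a tamoxifen-activated recombinase driven by the keratin 14 promoter of basal keratinocytes, and Control mice were Spry1flox/flox with no Cre listed. Both groups were given oral tamoxifen in corn oil for 4 weeks, with 4 doses weekly of 0.1 mg for each g of mouse. No group carried the recombinase without floxed Spry1, so Spry1 loss and the recombinase itself cannot be told apart. The labels give no age, sex or strain and do not tie samples to separate animals. The p-values thus reflect sample-to-sample spread alone, and how much of that is technical is not known.

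Values are FPKM, a level scaled to gene length and to the sample's fragment total. Recovered reads summed to 18383323 to 21024714 per sample. Spry1, the targeted gene, stood at 1.06, 1.49 and 1.28 FPKM in Spry1_KO samples, against 25.8, 28.2 and 34.4 FPKM in Control samples. Keratinocyte markers were abundant: the 6 summed to between 21900 and 27500 FPKM in Spry1_KO samples and between 11800 and 14200 FPKM in Control samples. By mean, Krt14, Krt5 and Krt1 were higher in Spry1_KO. Krt10 (2750 FPKM in Spry1_KO, 5100 FPKM in Control), Trp63 (64.2 and 83.6 FPKM) and Dsp (429 and 453 FPKM) were lower. Control replicate 3 stood apart from the other Control samples on the second principal component. Spry1_KO replicate 2 was the only sample with Y-linked RNA above trace level (Eif2s3y at 19.3 FPKM, against 0.203 and 0.0438 FPKM in Spry1_KO replicates 1 and 3, and 0 in every Control sample). The X-linked RNA Xist stood at 1.31 FPKM in that sample. It stood at 25.3 and 20.0 FPKM in Spry1_KO replicates 1 and 3, and at 50.6, 41.1 and 89.1 FPKM in Control samples. The Spry1_KO samples were thus not all from the same animal. The test across all genes was limma on log2(FPKM + 1), over the 12629 genes that averaged 1 FPKM or more, with Benjamini-Hochberg adjustment and a threshold of 0.05. Of these genes 54.0% passed, 29.6% higher and 24.4% lower in Spry1_KO.

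Summed semaphorin RNA was lower in every knockout sample than in every control sample, with Sema3d and without it, while the summed RNA of the receptors overlapped between the groups. The 20 semaphorins summed to 82.8, 74.1 and 75.3 FPKM in Spry1_KO samples, against 167, 164 and 188 FPKM in Control samples. Without Sema3d they summed to 82.7, 73.9 and 75.1 FPKM in Spry1_KO samples, against 136, 132 and 157 FPKM in Control samples. The 11 plexins and neuropilins summed to 92.4, 91.4 and 80.7 FPKM in Spry1_KO samples, against 77.3, 81.6 and 95.9 FPKM in Control samples. The ligand sum divided by the receptor sum was 0.896, 0.81 and 0.934 in Spry1_KO samples, against 2.16, 2.01 and 1.96 in Control samples. Without Sema3d it was 0.895, 0.809 and 0.931 in Spry1_KO samples, against 1.76, 1.62 and 1.64 in Control samples. These sums were not tested, because the members were chosen with results known. In bulk tissue, fewer cells of a type and less RNA per cell cannot be told apart.

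**Figure D1:**
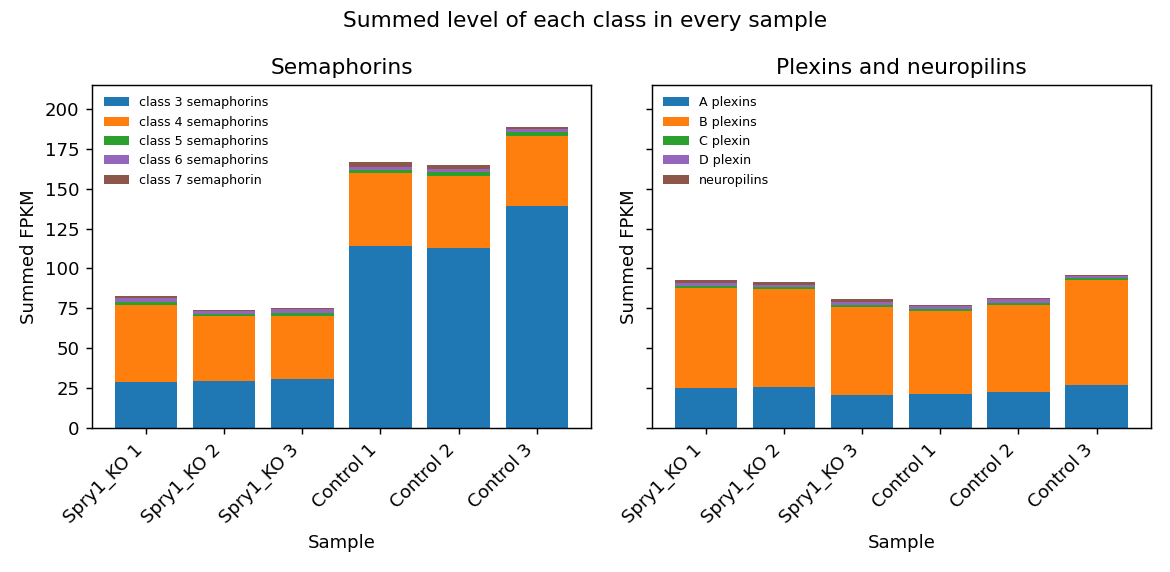
Summed FPKM of each semaphorin class (left) and each receptor class (right) in the 3 Spry1_KO and 3 Control samples, as stacked bars from 0. Class 3 semaphorins, Sema3d included, make up 34.9% to 41.2% of the semaphorin sum in Spry1_KO samples and 68.6% to 73.7% in Control samples, while the receptor bars are of like height in both groups.

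Class 3, the secreted ligands, differed most in summed level among the semaphorin classes, also with Sema3d left out. Class 3 summed to 28.9, 29.3 and 31.0 FPKM in Spry1_KO samples, against 114, 113 and 139 FPKM in Control samples, so that every knockout sample lay below every control sample. Without Sema3d the class summed to 28.8, 29.2 and 30.8 FPKM in Spry1_KO samples, against 83.3, 80.8 and 108 FPKM in Control samples. Its share of the semaphorin sum was then 34.8% to 41.0% in Spry1_KO samples and 61.1% to 68.6% in Control samples. Class 4 summed to 48.2, 40.6 and 39.1 FPKM in Spry1_KO samples, against 45.8, 44.7 and 43.8 FPKM in Control samples, and these ranges overlapped. With TPM scaling, which sets every sample's total to the same sum, class 4 stood at -0.34 on the log2 scale (Spry1_KO over Control) in place of -0.07. Class 5, 6 and 7 together made up a small share: the class 6 sum was 2.18 ± 0.309 FPKM in Spry1_KO and 2.01 ± 0.169 FPKM in Control (SD, n = 3 each).

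Sema3d, the gene whose difference drew attention to the family, was nearly absent from the knockouts. It stood at 0.0695, 0.127 and 0.212 FPKM in Spry1_KO samples, against 31.0, 31.7 and 30.8 FPKM in Control samples. This rests on 12, 19 and 30 reads in Spry1_KO samples, against 4858, 4988 and 5164 reads in Control samples. The Control mean was 229 times the Spry1_KO mean. By mean level it was the semaphorin of rank 18 of 20 in Spry1_KO and of rank 3 in Control. Its log2 fold change of -4.83 understates this ratio, because the added 1 FPKM weighs on low values. In mouse build GRCm38 it lies on chromosome 5 from 12383385 to 12588948.

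Sema3c, a secreted ligand known for guiding neural crest cells and vessels, fell most among the members given with a test. It stood at 8.02, 7.68 and 8.96 FPKM in Spry1_KO samples, against 39.2, 37.2 and 53.5 FPKM in Control samples. The groups were far apart, and the highest control was replicate 3. On the log2 scale this was a difference of -2.25 ± 0.15 (SE; limma adjusted p of 6.69e-05). Sema3f, a repellent ligand that acts mainly through neuropilin 2, fell as well and remained the most abundant semaphorin in both groups. It stood at 18.2, 18.9 and 19.9 FPKM in Spry1_KO samples, against 41.0, 40.4 and 53.0 FPKM in Control samples. In limma the log2 fold change came to -1.19 ± 0.12 (SE; adjusted p of 0.000314).

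The remaining class 3 genes were low. Sema3e, which binds plexin D1 without a neuropilin, stood at 2.16, 2.15 and 1.28 FPKM in Spry1_KO samples, against 2.40, 2.78 and 1.27 FPKM in Control samples. The groups overlapped, and its log2 fold change of -0.12 had a 95% interval from -0.67 to 0.42 (limma adjusted p of 0.682). Sema3b averaged 0.370 and 0.161 FPKM in Spry1_KO and Control, Sema3g 0.167 and 0.30 FPKM, and Sema3a 0.00704 and 0.0142 FPKM. These were below the level tested, and all had overlapping groups. Sema3a, the best-known repellent of sensory axons in skin, had at most 7 reads in any sample.

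Class 3 genes lie in clusters. On chromosome 5, Sema3d, Sema3a, Sema3e and Sema3c lie in that order between 12383385 and 17730268 (GRCm38), a stretch with 77 annotated genes of the table. Of these genes 5 averaged 1 FPKM or more, 3 of them semaphorins: Sema3d, described above with no test, Sema3c, which fell, and Sema3e, which did not pass. The others were the annotated processed pseudogenes Gm10108 and Gm8991, of which Gm8991 rose (log2 fold change 0.82, limma adjusted p of 0.00015) and Gm10108 missed the threshold (limma adjusted p of 0.148). On chromosome 9, Sema3b and Sema3f lie between 107597674 and 107710475. Their neighbour Gnai2, a G protein subunit, stood at 61.5 FPKM in Spry1_KO and 59.7 FPKM in Control and missed the threshold (limma adjusted p of 0.682).

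**Figure D2:**
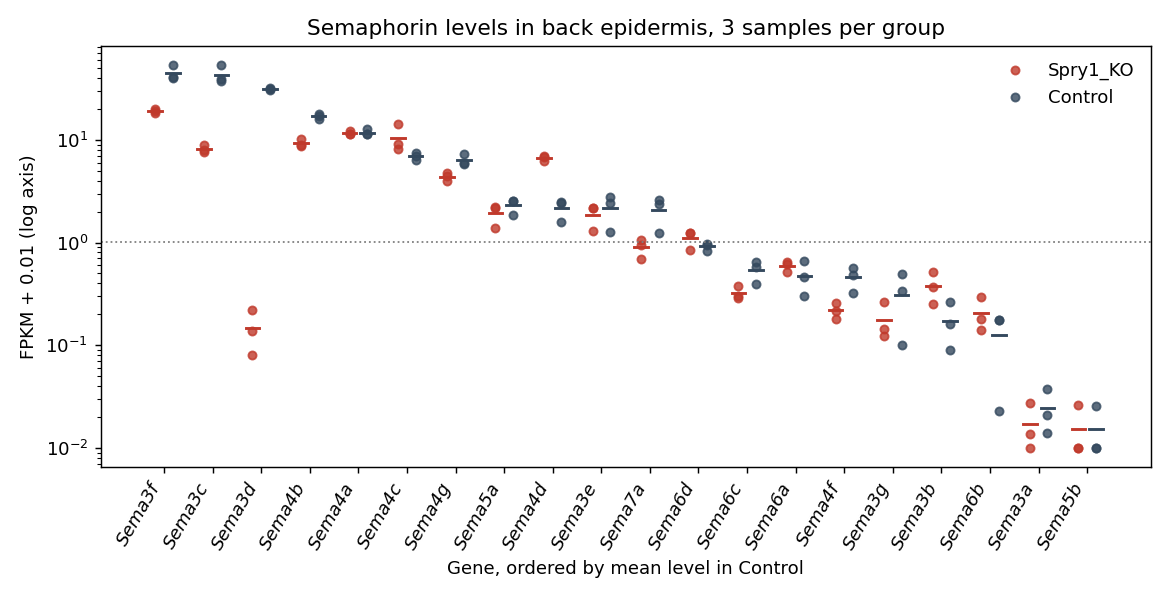
FPKM + 0.01 (log axis) of the 20 semaphorins, ordered by their Control mean. Points are the 3 Spry1_KO (left of each pair) and 3 Control samples, bars are means, and the dotted line marks 1 FPKM. Sema3d stands at 0.0695 to 0.212 FPKM in Spry1_KO and 30.8 to 31.7 FPKM in Control.

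The RefSeq upstream windows of Sema3d and Sema3c differ in base composition. Upstream sequence of 250 bases was taken from RefSeq (GRCm38.p6) for 26 members, using for each the start nearest to the GENCODE 5′ end of the gene. Gene-level FPKM does not say which start is used. The RefSeq start lay 219 bases from that end for Sema3d, 535 for Sema3c and 32 for Nrp2, and up to 271370 (Sema3a) among the members. The Sema3c window thus lies inside the gene as annotated in GENCODE, which starts at 17574281. The Sema3d window lies before its gene, which starts at 12383385. Those of Sema3d and Sema3c, which were lower in the knockouts and abundant in the controls, and of Nrp2, a receptor gene that was higher in the knockouts, are shown 5′ to 3′. Sema3d lies at chr5:12382916-12383165 (plus strand), Sema3c at chr5:17574566-17574815 (plus strand) and Nrp2 at chr1:62703067-62703316 (plus strand). Capitals mark the GC box GGGCGG on either strand, with overlapping matches counted.
Sema3d: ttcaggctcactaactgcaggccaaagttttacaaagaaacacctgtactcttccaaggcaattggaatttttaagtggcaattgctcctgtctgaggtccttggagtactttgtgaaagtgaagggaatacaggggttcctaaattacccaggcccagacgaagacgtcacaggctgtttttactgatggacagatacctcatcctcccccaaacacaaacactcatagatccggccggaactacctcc
Sema3c: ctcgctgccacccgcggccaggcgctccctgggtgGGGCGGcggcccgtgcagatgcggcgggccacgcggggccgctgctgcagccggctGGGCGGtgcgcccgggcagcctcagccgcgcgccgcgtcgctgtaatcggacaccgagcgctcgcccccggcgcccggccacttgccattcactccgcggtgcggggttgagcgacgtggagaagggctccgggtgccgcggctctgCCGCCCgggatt
Nrp2: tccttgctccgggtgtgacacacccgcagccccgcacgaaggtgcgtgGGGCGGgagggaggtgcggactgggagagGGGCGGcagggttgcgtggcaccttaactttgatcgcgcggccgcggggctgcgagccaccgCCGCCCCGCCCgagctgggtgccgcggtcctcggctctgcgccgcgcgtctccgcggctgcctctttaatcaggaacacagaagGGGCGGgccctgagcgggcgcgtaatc
The Sema3d window had 46.8% G and C and no GC box. The Sema3c window had 78.4% and 3 matches, and that of Nrp2 had 72.4% and 5 matches. Of the 26 member windows 20 held a GC box, against 32.7% of all 32851 RefSeq windows of this length. None held TATAAA (12.4% of all windows), 1 held TGANTCA, the AP-1 motif (6.75%), and 1 held the E-box CACGTG (6.02%), all on both strands. The 32851 windows hold every start listed, while for each member only the nearest start was taken. The shares are therefore of unlike sets and were not tested. A match is a description of the letters and not a binding site.

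Class 4 semaphorins, which span the membrane and can be shed, moved in both directions. Sema4d, known in immune cells and as a ligand of plexins B1 and B2, rose. It stood at 6.99, 6.18 and 6.79 FPKM in Spry1_KO samples, against 1.59, 2.48 and 2.43 FPKM in Control samples, with no overlap. The difference came to 1.29 ± 0.14 (SE) on the log2 scale (limma adjusted p of 0.000378). Sema4c, a ligand of plexin B2, was also higher in every knockout sample, at 14.3, 9.08 and 8.09 FPKM, against 6.96, 7.51 and 6.39 FPKM in Control samples. Spry1_KO replicate 1 was the highest by far, and the log2 fold change of 0.49 missed the threshold (limma adjusted p of 0.0669). It passed without Spry1_KO replicate 3 (0.64, adjusted p of 0.039) and with array weights (0.51, 0.0472). It came to 0.27 without Spry1_KO replicate 1 (0.0948) and to 0.26 under TPM scaling (0.394).

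Sema4d is also made by T cells and macrophages, whose markers differed between the groups. The 7 T cell markers summed to between 16.3 and 30.4 FPKM in Spry1_KO samples and between 76.9 and 101 FPKM in Control samples. Of these 7, 5 were lower and 2 higher, where 24.4% of all genes tested were lower and 29.6% higher. Cd4, among those higher, averaged 0.397 FPKM in Control and was tested through its Spry1_KO level. None of the 7 was at 0 in a whole group. The 7 macrophage and neutrophil markers summed to between 258 and 518 FPKM in Spry1_KO samples and between 15.5 and 24.0 FPKM in Control samples. Of these 7, 5 were higher and 1 lower, beside the same shares of all genes. Cxcr2, C1qc and Cd14, among those higher, averaged below 1 FPKM in Control and were tested through their Spry1_KO level. S100a8, which stressed keratinocytes also make, averaged 301 FPKM in Spry1_KO, most of the sum there, and 2.17 FPKM in Control. The macrophage marker Adgre1 fell, at 1.88 FPKM in Spry1_KO and 6.74 FPKM in Control. The part of these cells in the values of Sema4d was not tested.

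Sema4b and Sema4g fell. Sema4b stood at 10.1, 8.97 and 8.64 FPKM in Spry1_KO samples, against 18, 17.2 and 16.1 FPKM in Control samples. On the log2 scale this was a difference of -0.82 ± 0.09 (SE; limma adjusted p of 0.000419). Sema4g had 4.48, 4.70 and 3.94 FPKM in Spry1_KO samples, against 7.35, 5.76 and 5.98 FPKM in Control samples. In limma the log2 fold change came to -0.45 ± 0.11 (SE; adjusted p of 0.0134). In both genes the groups were apart, with a smaller gap in Sema4g.

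Sema4a, known for its part in T cell priming, was level between the groups. It stood at 12.1, 11.4 and 11.5 FPKM in Spry1_KO samples, against 11.3, 11.3 and 12.7 FPKM in Control samples, and it was the semaphorin of rank 2 in Spry1_KO and rank 5 in Control. Its log2 fold change was -0.01, with a 95% interval from -0.20 to 0.18. Sema4f averaged 0.208 ± 0.0361 FPKM in Spry1_KO and 0.449 ± 0.127 FPKM in Control (SD, n = 3 each) and was below the level tested. On recovered reads it had 26, 19 and 15 reads in Spry1_KO samples, against 54, 46 and 32 reads in Control samples. It was lower in limma-voom on those reads (log2 fold change -1.18, adjusted p of 0.0227), where 30.8% of 15481 genes were lower. It missed the threshold in limma with no filter on low values (adjusted p of 0.064).

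In class 5, 6 and 7, only Sema7a and Sema5a were tested, and of these Sema7a passed. Sema7a averaged 0.888 FPKM in Spry1_KO and 2.05 FPKM in Control, so it was in the test through its Control level. Sema7a, which binds plexin C1 and beta 1 integrin, stood at 1.06, 0.926 and 0.682 FPKM in Spry1_KO samples, against 2.58, 2.35 and 1.23 FPKM in Control samples. Control replicate 3 lay close to the knockouts. In limma it differed by -0.67 ± 0.20 on the log2 scale (SE; adjusted p of 0.0291). That call was lost with no filter on low values (limma adjusted p of 0.069) and on leaving out any 1 sample except Control replicate 3 (0.0536 to 0.0934). Sema5a stood at 2.18, 1.38 and 2.20 FPKM in Spry1_KO samples, against 1.85, 2.52 and 2.52 FPKM in Control samples, and missed the threshold (limma adjusted p of 0.366, 95% interval from -0.56 to 0.20).

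Class 6 semaphorins, which can act as ligands or receptors, were all below the level tested. Sema6d averaged 1.09 ± 0.224 FPKM in Spry1_KO and 0.906 ± 0.0712 FPKM in Control, and Sema6a 0.587 ± 0.0670 and 0.462 ± 0.176 FPKM (SD, n = 3 each). Sema6b averaged 0.196 and 0.115 FPKM in Spry1_KO and Control. In each of these genes the groups overlapped. Sema6c had 35, 38 and 27 reads in Spry1_KO samples, against 61, 42 and 74 reads in Control samples. Sema6c was lower in limma-voom on recovered reads (log2 fold change -0.87, adjusted p of 0.0453), where 30.8% of 15481 genes were lower. It missed the threshold in limma with no filter on low values (adjusted p of 0.129). Sema5b was listed at 0 in 2 of 3 samples of each group.

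Of the 10 semaphorins tested besides Sema3d, 1 rose and 5 fell, or 60%, against 54.0% of all genes tested. Their median log2 fold change was -0.32, against 0.03 over all genes. Sema7a, 1 of the 5 that fell, averaged below 1 FPKM in Spry1_KO and was tested through its Control level. Over the 19 semaphorins besides Sema3d, the samples of the groups did not overlap in 9, 2 higher and 7 lower in Spry1_KO, and over the 11 receptors in 4, 2 each way. Groups were likewise apart in 64.2% of the genes tested and in 42.1% of the 28340 genes with any value above 0. These counts are a description, because the family was chosen on the same comparison.

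**Figure D3:**
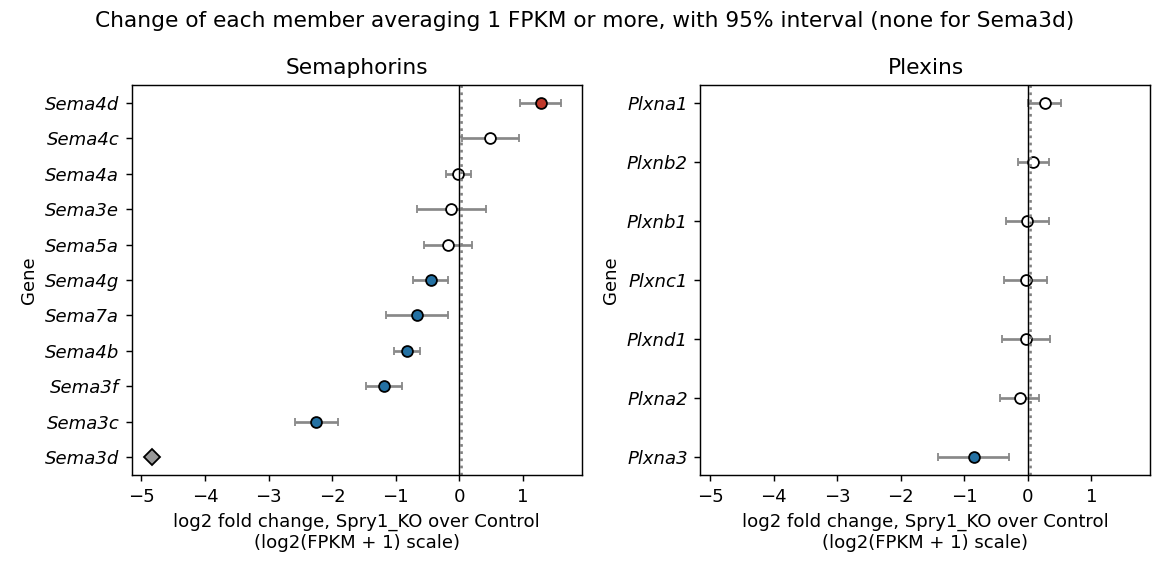
Log2 fold change (Spry1_KO over Control, log2(FPKM + 1) scale) with its 95% interval for the 18 members that averaged 1 FPKM or more, semaphorins left and plexins right. Filled circles passed the test (red higher, blue lower), open circles did not, the grey diamond is Sema3d, given with no test, and the dotted line is the median of all genes. Of the 7 plexins only Plxna3 passed in this fit.

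The plexins that made up most of the receptor RNA did not pass the test. Plxnb2, a receptor of class 4 semaphorins, was the most abundant, at 44.0, 44.5 and 39.6 FPKM in Spry1_KO samples, against 37.1, 38.4 and 45.1 FPKM in Control samples. Its log2 fold change was 0.09, with a 95% interval from -0.15 to 0.33, and its sign turned under TPM scaling (-0.19). Plxnb1, the receptor of Sema4d, stood at 18.6, 17.4 and 15.0 FPKM in Spry1_KO samples, against 15.0, 15.8 and 20.9 FPKM in Control samples. Its log2 fold change was -0.01, with a 95% interval from -0.35 to 0.33. For both genes the samples of the groups were mixed. Together with Plxna1 they held 88.1% to 89.6% of the receptor sum in Spry1_KO samples and 85.2% to 86.7% in Control samples.

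The A plexins, the signalling partners of neuropilins, differed among themselves. Plxna1 stood at 20.2, 20.0 and 16.5 FPKM in Spry1_KO samples, against 14.1, 16.5 and 15.8 FPKM in Control samples. Its log2 fold change of 0.27 missed the threshold (limma adjusted p of 0.0715) and passed without Spry1_KO replicate 3 (0.0304) and with array weights (0.0291). Under TPM scaling it came to 0.0 (0.983). Plxna3, an X-linked gene whose product pairs with neuropilin 2 for Sema3f, fell. It stood at 2.02, 2.63 and 2.01 FPKM in Spry1_KO samples, against 4.07, 3.50 and 7.44 FPKM in Control samples. The groups were apart, with Control replicate 3 far above the other controls. In limma it differed by -0.85 ± 0.24 on the log2 scale (SE; adjusted p of 0.0209), and the call was lost with no filter on low values (0.0525) and without Spry1_KO replicate 1 (0.0659) or 3 (0.0677). Without Control replicate 3 it passed with a log2 fold change of -0.58 (0.0101).

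Plxna2 stood at 2.62, 2.88 and 2.48 FPKM in Spry1_KO samples, against 2.85, 2.52 and 3.70 FPKM in Control samples, and missed the threshold (limma adjusted p of 0.436). Plxna4 had 0, 4 and 3 reads in Spry1_KO samples, against 17, 22 and 12 reads in Control samples. At under 10 reads on average it was tested in neither fit. The groups did not overlap.

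Plxnc1 and Plxnd1 were level. Plxnc1, the receptor of Sema7a, averaged 1.41 ± 0.212 FPKM in Spry1_KO and 1.48 ± 0.327 FPKM in Control (SD, n = 3 each), with a 95% interval of the log2 fold change from -0.37 to 0.31. Plxnd1, the receptor of Sema3e and best known in vessels, averaged 1.58 ± 0.273 and 1.65 ± 0.432 FPKM (SD, n = 3 each), with an interval from -0.41 to 0.35. Plxnb3, also X-linked, had 2, 0 and 6 reads in Spry1_KO samples, against 6, 8 and 3 reads in Control samples. In the plexins as a whole, 1 of 7 tested passed (14.3%), against 54.0% of all genes tested.

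**Figure D4:**
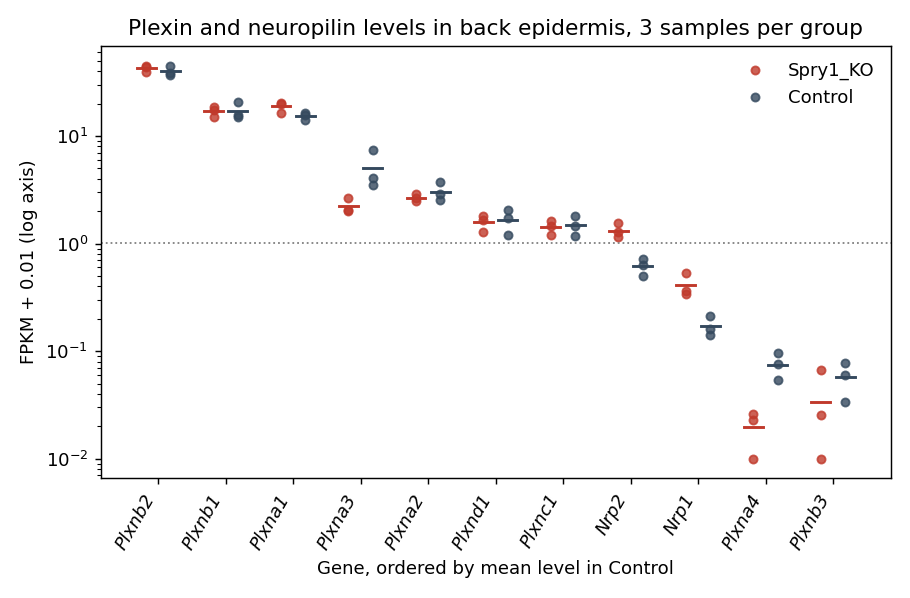
FPKM + 0.01 (log axis) of the 9 plexins and 2 neuropilins, ordered by their Control mean. Points are the 3 Spry1_KO (left of each pair) and 3 Control samples, bars are means, and the dotted line marks 1 FPKM. The neuropilins, at 0.330 to 1.53 FPKM in Spry1_KO and 0.131 to 0.702 FPKM in Control, lie far below Plxnb2.

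Both neuropilins, the ligand-binding receptors of class 3 semaphorins, were low and were higher in every knockout sample. Nrp2 stood at 1.53, 1.26 and 1.14 FPKM in Spry1_KO samples, against 0.625, 0.702 and 0.485 FPKM in Control samples. Nrp1, which also binds VEGF, stood at 0.351, 0.330 and 0.528 FPKM in Spry1_KO samples, against 0.202, 0.151 and 0.131 FPKM in Control samples. Nrp1 rested on 69, 56 and 85 reads in Spry1_KO samples, against 36, 27 and 25 reads in Control samples. Their mean lay below 1 FPKM, so neither was in the test on FPKM. In limma-voom on recovered reads, where 52.5% of 15481 genes passed, Nrp2 rose by 1.0 ± 0.21 and Nrp1 by 1.16 ± 0.31 on the log2 scale (SE, adjusted p of 0.0049 and 0.013). Both were also higher in limma with no filter on low values (adjusted p of 0.0248 and 0.0375).

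Neuropilins are known from vessels, lymphatics and immune cells, so markers of such cells are given beside them. The 8 vascular endothelium markers summed to between 2.04 and 2.94 FPKM in Spry1_KO samples and between 1.92 and 6.63 FPKM in Control samples. None reached a mean of 1 FPKM in either group, and none was at 0 in a whole group. Pecam1 averaged 0.575 FPKM in Spry1_KO and 0.994 FPKM in Control, with overlapping groups. In limma-voom on recovered reads Egfl7 was higher, at 0.778 FPKM in Spry1_KO and 0.284 FPKM in Control (adjusted p of 0.0131). Vwf was lower there, at 0.154 and 0.678 FPKM (adjusted p of 0.0396). In limma with no filter on low values Egfl7 passed (adjusted p of 0.0213) and Vwf did not (0.168). The 4 lymphatic endothelium markers summed to between 8.93 and 12.8 FPKM in Spry1_KO samples and between 2.28 and 2.58 FPKM in Control samples, nearly all of it Pdpn, which keratinocytes can also make. Prox1, a defining lymphatic marker, averaged 0.0306 and 0.0517 FPKM in Spry1_KO and Control. Macrophage and neutrophil markers were higher in the knockouts, as given above, and the 6 melanocyte markers summed to between 210 and 214 FPKM in Spry1_KO samples and between 8.02 and 11.2 FPKM in Control samples. The part of endothelium, macrophages and melanocytes in the neuropilin values was not tested.

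Markers of tissue beneath the epidermis and of other cells differed in both directions. The 7 skeletal muscle markers summed to between 3.90 and 5.84 FPKM in Spry1_KO samples and between 17.8 and 66.5 FPKM in Control samples. No muscle marker was at 0 in a whole group. All but Mylpf averaged below 1 FPKM in Spry1_KO. Most were thus in the test through their Control level, and their calls are not counted here. The 8 fibroblast markers summed to between 160 and 313 FPKM in Spry1_KO samples and between 32.8 and 44.3 FPKM in Control samples. In that list Postn rose (239 FPKM in Spry1_KO, 27.4 FPKM in Control) and 3 markers fell. Those 3 averaged below 1 FPKM in Spry1_KO and were in the test through their Control level. The 8 nerve and Schwann cell markers summed to between 23.0 and 43.7 FPKM in Spry1_KO samples and between 31.7 and 47.1 FPKM in Control samples. Langerhans cell markers summed to between 375 and 557 FPKM in Spry1_KO samples and between 983 and 1630 FPKM in Control samples, with 4 of 6 lower. Red blood cell markers summed to between 18.9 and 94.5 FPKM in Spry1_KO samples and between 75.7 and 171 FPKM in Control samples, with 1 of 4 lower. Of all genes tested, 29.6% were higher and 24.4% lower. The 4 mast cell markers summed to at most 5.83 FPKM in Spry1_KO samples and 0.838 FPKM in Control samples. None of the 3 hair follicle markers tested passed, where 54.0% of all genes did, and Krt35 was listed at 0 in all Spry1_KO samples. The part of all these cells in the semaphorin values was not tested.

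Genes that act with semaphorin receptors moved both ways. Of 58 signalling partners 44 were tested, and 12 rose and 11 fell, or 52.3%, against 54.0% of all genes. Among co-receptors and alternative ligands or receptors, 1 of 11 rose and 5 fell, or 54.5%. Vegfa, a growth factor that shares the neuropilins with class 3 semaphorins, rose to 23.1, 20.5 and 13.1 FPKM in Spry1_KO samples, against 2.20, 7.53 and 3.15 FPKM in Control samples (limma adjusted p of 0.00425). Its receptors Kdr and Flt1 averaged 0.0307 and 0.170 FPKM in Spry1_KO, against 0.0927 and 0.462 FPKM in Control, below the level tested. Chl1, an adhesion molecule that links neuropilins to the cytoskeleton, fell to 5.83, 4.99 and 6.03 FPKM, against 32.0, 27.9 and 28.3 FPKM in Control samples. The difference came to -2.20 ± 0.10 (SE) on the log2 scale (limma adjusted p of 1.66e-05).

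The receptor tyrosine kinases Met and Erbb2, known partners of B plexins, fell by 0.47 and 0.51 on the log2 scale (limma adjusted p of 0.00396 and 0.00507). Cd72, an immune receptor of Sema4d, fell to 2.11 ± 0.692 FPKM in Spry1_KO, against 4.64 ± 0.573 FPKM in Control (SD, n = 3 each; limma adjusted p of 0.00516).

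Among the effectors, 9 of 29 tested rose and 5 fell, or 48.3%, against 54.0% of all genes. Cfl1, which encodes the actin-severing protein cofilin, rose to 345, 335 and 345 FPKM in Spry1_KO samples, against 150, 170 and 166 FPKM in Control samples (log2 fold change 1.07, limma adjusted p of 0.000168). Rac1, one of several GTPases through which plexins act, and Arhgap35 rose by 0.51 and 0.55 on the log2 scale (limma adjusted p of 0.00221 and 0.000973). Neither passed under TPM scaling (0.0561 and 0.0645). Pak1, a kinase downstream of Rac1, fell to 6.52, 6.21 and 6.64 FPKM, against 21.7, 23.1 and 16.3 FPKM in Control samples (log2 fold change -1.50, limma adjusted p of 0.000191).

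Of the 4 proteases tested, 2 rose and 1 fell, where 29.6% of all genes rose and 24.4% fell. Furin, which cleaves class 3 semaphorins, rose to 18.9, 18.1 and 20.7 FPKM in Spry1_KO samples, against 7.46, 9.22 and 8.78 FPKM in Control samples. On the log2 scale this was a difference of 1.09 ± 0.10 (SE; limma adjusted p of 0.000217). Its groups were well apart.

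Other guidance families moved both ways too. Of 43 listed genes of the ephrin, Eph, slit, netrin and repulsive guidance molecule families, 42 were found and 23 tested, and 6 rose and 10 fell (69.6%, against 54.0% of all genes). Their median log2 fold change was -0.16. Rgmb, a BMP co-receptor, fell to 5.20, 4.33 and 3.99 FPKM in Spry1_KO samples, against 32.9, 27.5 and 28.8 FPKM in Control samples (log2 fold change -2.48, limma adjusted p of 1.75e-05). Ephb6, Ephb3, Unc5b, a netrin receptor, and Epha1 fell by 1.0, 0.95, 1.04 and 0.60 on the log2 scale. Robo2, a slit receptor, rose by 1.31, Ephb2 by 0.73 and Efna2 by 0.59. Robo2 and Ephb2, counted among the 6 that rose, averaged 0.317 and 0.703 FPKM in Control and were tested through their Spry1_KO level. Ephb4 and Epha4 rose by 0.51 and 0.41, and neither passed under TPM scaling (0.298 and 0.417), when scaled to recovered reads (0.0694 and 0.0854), in limma-voom (0.0536 and 0.0661) or without Spry1_KO replicate 1 (0.0537 and 0.0558). Whether these families differ from the semaphorins was not tested.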

How the data were processed

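RNA from mouse back epidermis was sequenced in 3 Spry1_KO and 3 Control samples. The authors aligned reads with HISAT2 2.0.5 and counted them with featureCounts 1.5.0-p3 on GRCm38 (mm10), per the submitters' processing notes. The authors deposited FPKM values per gene. Whether counting used strand is not given in the sources used here, and 18 members overlap other annotated genes, none of which has a group mean above 0.833 FPKM. All per-sample columns were used (0 left out).

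From the FPKM, limma 3.58.1 (R 4.3.3, trend) was fitted on log2(FPKM + 1) for genes averaging 1 FPKM or more, two-sided, with Benjamini-Hochberg adjustment over all genes tested. Fold changes on this scale understate those of low genes. Of the 31 members, 18 were in this fit, with Sema3d among them given without its test. Counts and sums without Sema3d were added after seeing the data. FPKM multiplied by GENCODE M21 exon length gave whole reads for 98.0% to 98.3% of values below 300 reads (within 0.1 read), and limma-voom on genes with a mean of at least 10 recovered reads was an alternative. Others were TPM and median-ratio scaling, scaling to recovered reads, a pseudocount of 0.1, no filter, array weights, a replicate block and leaving out samples. Scaling matters: 54.8% of calls were higher in Spry1_KO on FPKM and 31.5% under TPM scaling, which moved the median log2 fold change of all genes to -0.222. Chi-square per gene between replicates was 12.0 to 68.2, so no pair matched within sampling noise. Genes named outside the family were the up to 5 with the lowest p in each direction per list, plus listed markers and genes named after their values were seen (Kdr, Flt1, Gnai2, Gm10108, Gm8991, Prox1, Postn, Adgre1, Egfl7, Vwf, Xist). The members and lists were chosen with earlier results of these data known. Fits were also run on simulated data in which few genes were changed. In these data 54.0% of genes passed, so that run does not test the calls made here.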

Additional observations from a re-analysis of the deposited data

How the results depend on the processing

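The calls of Sema3c, Sema3f, Sema4b, Sema4d and Sema4g held in all 15 alternatives run. Calls among all genes numbered 5834 with a replicate block and 5609 to 7290 on leaving out 1 sample. Over all 12629 genes, 3736 were higher and 3079 lower in the fit reported, and 2055 and 4470 under TPM scaling. These counts were 2900 and 3742 when scaled to recovered reads, 4218 and 3613 with array weights, and 3216 and 2618 with the block. With no filter they were 4000 and 3709 of 28340 genes, and in limma-voom 3371 and 4762 of 15481. Counts of members below are to be read beside these. Samples of the same replicate number did not vary together around their group means (correlations of -0.0981, -0.111 and -0.125). With 3 samples per group these values cannot exclude that the numbers stand for pairs. With the block, 6 signalling partners were lower in place of 11. Without Sema3d, higher semaphorins numbered 2 with array weights and 1 to 2 on leaving out 1 sample, and lower ones 4 to 5 in place of 5. Higher receptors numbered 2 with no filter, 2 in limma-voom, 1 with array weights and 0 to 1 on leaving out 1 sample. Lower receptors numbered 0 with no filter and 0 to 1 on leaving out 1 sample. Higher partners numbered 5 under TPM scaling and 10 to 13 on leaving out 1 sample, and lower partners 7 to 12. Higher genes of the other guidance families numbered 3 under TPM scaling, 3 when scaled to recovered reads and 3 to 7 on leaving out 1 sample, and lower ones 7 to 10.

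Under TPM scaling the log2 ratio of sums (Spry1_KO over Control) was -2.32 for class 3, -0.34 for class 4, -0.15 for class 6, -1.44 for all semaphorins (-1.16 without Sema3d), -0.27 for A plexins, -0.23 for B plexins and -0.23 for all receptors. The signs of class 6, both plexin classes and all receptors turned. Genes that had not passed changed sign in some fits. Plxnb2 came to -0.19 under TPM scaling, -0.04 when scaled to recovered reads and -0.04 in limma-voom. Plxnb1 came to 0.13 with array weights, to between -0.1 and 0.13 on leaving out 1 sample, and to 0.11 with both Spry1_KO replicate 2 and Control replicate 3 left out. Sema4a came to 0.03 with array weights, 0.04 without Control replicate 3, 0.06 without that pair, and 0.0 without Spry1_KO replicate 2 or 3. Sema5a came to 0.01 without that pair. Sema3e came to 0.04 without Spry1_KO replicate 3 and 0.03 without Control replicate 2. On leaving out 1 sample, Plxnc1 lay between -0.13 and 0.06 (0.03 without Spry1_KO replicate 2) and Plxnd1 between -0.16 and 0.07 (0.06 without it). The cause was not tested. Reads limit Sema3a, Sema5b, Plxna4 and Plxnb3, which averaged under 10.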
